A study of Mus musculus with 36 samples.

Results

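Gpt2 knockout brains differed among themselves in how strongly they expressed a short set of stress-response genes, and 12 of the 36 brain libraries of the series are compared here: the 6 knockouts with the highest and the 6 with the lowest summed level of those genes. The 6 genes were Ddit3, Chac1, Asns, Psph, Mthfd2 and Atf5. In the CPM values the authors deposited (counts scaled for library depth), log2(CPM + 1) was averaged over them in each library to give a 6-gene score, and the 16 knockout libraries other than KO-Veh-7 and KO-aKG-7 were ranked by it. The 2 classes were therefore picked by expression and are not groups of the study.

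All animals were mice, and each library was made from 10 mg of brain taken at postnatal day 19, with no region, strain or sex given in the labels. The knockouts carry the genotype Gpt2-KO and the wild types Gpt2-WT. Mice of either genotype received 600 mg per kg dm-αKG, a cell-permeable ester of alpha-ketoglutarate, or vehicle, by intraperitoneal injection. There were 8 KO-aKG, 10 KO-Veh, 8 WT-aKG and 10 WT-Veh libraries. The 6 highest knockouts held 3 dm-αKG and 3 vehicle libraries, and the 6 lowest held 2 dm-αKG and 4 vehicle libraries. Xist exceeded Ddx3y in 3 of the 6 highest and 1 of the 6 lowest. Library totals were 9.48 to 11.7 M counts in the 6 highest and 5.77 to 12.1 M counts in the 6 lowest. The shallowest library of the series, KO-aKG-5, was among the 6 lowest. The series' design text calls the libraries of a group biological replicates. Brain cell markers were present: the mean log2 CPM of 11 excitatory neuron genes was 5.84 to 7.78 in the 6 highest and 6.05 to 7.61 in the 6 lowest, and that of 18 astrocyte genes was 5.96 to 6.81 in the 6 highest and 6.01 to 6.87 in the 6 lowest.

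Gpt2 encodes the mitochondrial alanine aminotransferase, which exchanges an amino group between alanine and alpha-ketoglutarate. When amino acids run short, or when mitochondria or the endoplasmic reticulum are disturbed, kinases phosphorylate the translation factor eIF2, general translation slows, and the transcription factor ATF4 is made from its messenger RNA. ATF4, often paired with a C/EBP protein, then turns on genes for amino acid synthesis, amino acid uptake and tRNA charging, together with further regulators such as CHOP (Ddit3).

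ATF4 and C/EBP partners bind a composite element that was searched here as TGATGNAA on both strands of RefSeq promoters (GRCm38.p6, 250 bases before to 50 after each start). It was present in 4.51% of 27025 genes with a promoter. Among the 6 score genes it was found in 2 of 6, among 27 matched genes of a list of 32 other ATF4 targets in 10, and among 13 matched genes of a list of 20 cytosolic tRNA synthetases in 5. None of 19 matched glucocorticoid-induced genes held it. A match describes these letters in this window and is not a measured binding site. Stretches of 90 bases from 4 such promoters are shown because Chac1 and Asns belong to the score, while Herpud1 and Gars1 were outside it and had no overlap between the classes. The capitals mark the element, or its reverse complement, read 5′ to 3′ on the gene's strand. The stretches are chr2:119351008-119351097 (plus strand) for Chac1, chr6:7693210-7693299 (minus strand) for Asns, chr8:94386276-94386365 (plus strand) for Herpud1 and chr6:55037911-55038000 (plus strand) for Gars1.
Chac1: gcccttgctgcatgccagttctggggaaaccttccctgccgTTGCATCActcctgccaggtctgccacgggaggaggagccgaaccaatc
Asns: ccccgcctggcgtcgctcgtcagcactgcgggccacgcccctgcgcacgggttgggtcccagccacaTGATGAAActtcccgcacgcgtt
Herpud1: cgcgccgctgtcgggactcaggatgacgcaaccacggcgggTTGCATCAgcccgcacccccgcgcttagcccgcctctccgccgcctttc
Gars1: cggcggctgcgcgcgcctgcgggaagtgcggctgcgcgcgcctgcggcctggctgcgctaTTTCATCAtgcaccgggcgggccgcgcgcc

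The 6-gene score was graded across the knockouts. It was 5.99 in KO-Veh-1, 5.94 in KO-Veh-9, 5.87 in KO-aKG-8, 5.84 in KO-Veh-10, 5.66 in KO-aKG-1 and 5.63 in KO-aKG-6, which are the 6 highest. It was 5.33 in KO-Veh-3, 5.17 in KO-Veh-2, 5.05 in KO-aKG-5, 5.02 in KO-aKG-4, 4.99 in KO-Veh-8 and 4.74 in KO-Veh-6, which are the 6 lowest. The libraries just outside were close to those just inside: KO-Veh-5 had 5.61 beside KO-aKG-6, and KO-Veh-4 had 5.36 beside KO-Veh-3. The 2 knockouts that the rule leaves out scored 5.45 (KO-aKG-7) and 4.99 (KO-Veh-7). Every knockout scored above every wild type, whose scores ran from 3.504 to 4.29. The lowest knockouts are thus low among knockouts and not at the wild-type level.

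**Figure D1:**
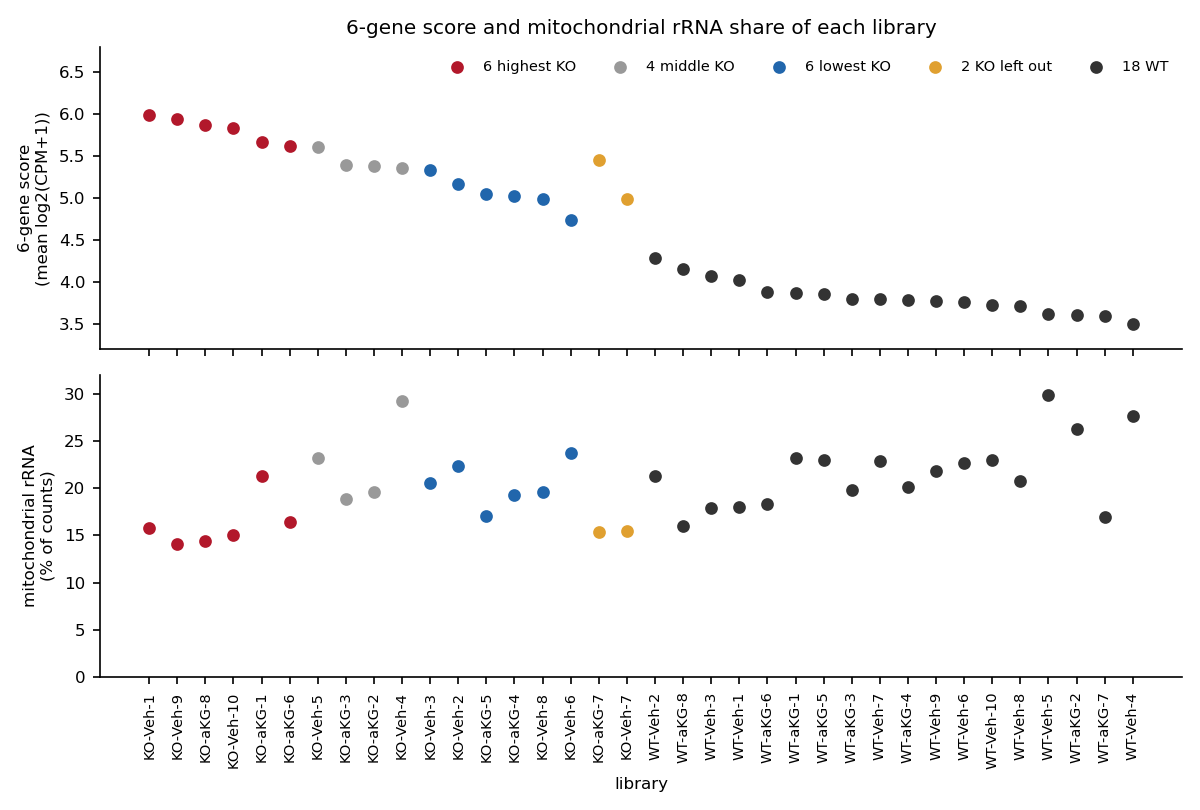
The upper panel plots the 6-gene score (mean log2(CPM + 1)) and the lower panel the share of counts on mitochondrial rRNA (percent) for each of the 36 libraries, with classes ordered from the highest knockouts to wild type. The scores of the 16 ranked knockouts fall between 4.74 and 5.99 with no gap at either class boundary, and the wild types lie between 3.504 and 4.29.

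The 6 genes did not contribute alike. Levels from here on are CPM after TMM scaling, a correction for library composition. Ddit3, the transcription factor CHOP, had a lowest, median and highest value of 51.0, 53.6 and 66.1 CPM in the 6 highest, against 31.3, 36.5 and 44.9 CPM in the 6 lowest and 9.09, 13.8 and 17.3 CPM in wild types. Chac1, which degrades glutathione, had 16.01, 23.9 and 28.3 CPM in the 6 highest, against 5.37, 10.6 and 18.8 CPM in the 6 lowest and 1.05, 2.22 and 4.60 CPM in wild types. Mthfd2, a mitochondrial folate enzyme, averaged 23.8 ± 5.52 CPM in the 6 highest and 14.5 ± 3.15 CPM in the 6 lowest (SD, n = 6 each). The log2 differences were 0.55 for Ddit3, 1.08 for Chac1 and 0.67 for Mthfd2. Asns, asparagine synthetase, and Psph, the last enzyme of serine synthesis, differed by 0.47 and 0.56. Atf5 averaged 44.7 ± 5.47 CPM in the 6 highest and 41.3 ± 8.52 CPM in the 6 lowest and hardly differed once composition was corrected, with a log2 difference of 0.06. These values describe the choice of the libraries and carry no test.

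By treatment, the 7 ranked KO-aKG libraries averaged a score of 5.43 ± 0.32 and the 9 KO-Veh libraries 5.44 ± 0.44 (SD), given without a test because these scores chose the classes. The 8 WT-aKG libraries averaged 3.82 ± 0.18 and the 10 WT-Veh libraries 3.83 ± 0.23, a difference of -0.01 (exact permutation test, two-sided, p = 0.941). Adjusted over the 4 single-value tests computed, that p was 0.953.

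The targeted gene was low in both classes. Gpt2 had a lowest, median and highest value of 1.11, 1.90 and 3.17 CPM in the 6 highest, against 0.88, 2.51 and 3.27 CPM in the 6 lowest and 21.9, 31.3 and 39.2 CPM in wild types. The knockout classes overlapped entirely, and both lay far below the wild types. Their log2 fold change over wild type was -3.93 in the highest and -3.71 in the lowest (edgeR quasi-likelihood, adjusted p = 3.2e-13 and 1.4e-12). Between the classes the log2 fold change was -0.27 ± 0.33 (SE, adjusted p = 0.854), with a 95% interval of -0.97 to 0.43.

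Which other genes go with the score was asked over 15228 genes, with treatment as a covariate and the 6 score genes left out. No gene passed an adjusted p of 0.05 (0% of genes tested, edgeR quasi-likelihood). At an unadjusted p under 0.05 there were 1100 genes (7.22%), 525 higher (3.45%) and 575 lower (3.78%) in the 6 highest. DESeq2 on the same counts called 28 genes, 13 higher and 15 lower, and limma on the deposited CPM called 2, Dusp5 and Tmem178. In 38 genes (0.25%) all of the 6 highest lay above all of the 6 lowest, and in 20 genes (0.131%) all lay below.

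The genes with the smallest p-values, none of which passed the edgeR test, included regulators of the cell cycle and of signalling. Each gene named here and on the lower side passed in the DESeq2 alternative. Adjusted p-values there ran from 0.00047 for Sec61bl to 0.0475 for Cd34 (DESeq2). Cdkn1a, the cyclin-dependent kinase inhibitor p21, had a lowest, median and highest value of 32.2, 59.9 and 85.9 CPM in the 6 highest, against 27.3, 29.3 and 42.5 CPM in the 6 lowest. Only KO-aKG-1 among the highest fell inside the range of the lowest. Its log2 fold change was 0.87 ± 0.18 (SE, adjusted p = 0.521). Dusp5, a phosphatase that inactivates ERK, had 11.3, 15.6 and 19.2 CPM in the 6 highest, against 2.67, 7.62 and 11.5 CPM in the 6 lowest, a log2 fold change of 1.07 ± 0.22 (adjusted p = 0.521). Its classes met at their edges. Wild types ran from 4.23 to 108 CPM, across both classes, and the left-out KO-aKG-7 and KO-Veh-7 had 41.0 and 93.4 CPM. Ciart, a repressor of the circadian clock, had a log2 fold change of 0.76 ± 0.14, Cd34 of 0.67 ± 0.15 and Fibin of 1.14 ± 0.26, each with an adjusted p of 0.521.

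On the lower side, Sec61bl had 23.0, 26.1 and 29.3 CPM in the 6 highest, against 29.9, 40.9 and 53.5 CPM in the 6 lowest, and the classes did not overlap. Its log2 fold change was -0.69 ± 0.12 (SE, adjusted p = 0.521). Prkg2, a cGMP-dependent protein kinase, also had no overlap, with 5.91, 6.01 and 8.97 CPM in the 6 highest, against 9.68, 11.4 and 14.4 CPM in the 6 lowest (log2 fold change -0.84 ± 0.16, adjusted p = 0.521). Wild types ran across both classes, from 18.7 to 56.4 CPM for Sec61bl and from 0.67 to 16.6 CPM for Prkg2. For Prkg2 the left-out KO-aKG-7 and KO-Veh-7 had 5.84 and 0.71 CPM, and the middle KO-Veh-4 had 15.5 CPM, above all of the lowest. The mitochondrial isoleucine tRNA mt-Ti had a log2 fold change of -0.95 ± 0.21, and Utrn, the dystrophin relative utrophin, of -0.63 ± 0.14. Rps19-ps6, a copy of a ribosomal protein gene whose reads may come from its parent gene, had -0.91 ± 0.18. All 3 had an adjusted p of 0.521.

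The other ATF4 targets lay on the side of the score genes, although no member passed the test. Of 31 tested members of a list of 32, 28 had a log2 fold change above 0 and 16 had an unadjusted p under 0.05, all of them higher, with a median of 0.40. Over all 15228 genes, 50.8% lay above 0, 3.45% were higher at an unadjusted p under 0.05, and the median was 0.00. The libraries were picked on 6 genes of the same response, so the direction of this list is not independent of the choice.

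In 3 of these targets the classes did not overlap, where 0.25% of all genes tested had all of the highest above all of the lowest. Slc3a2, the heavy chain shared by several amino acid transporters, had a lowest, median and highest value of 113, 126 and 153 CPM in the 6 highest, against 70.1, 95.6 and 102 CPM in the 6 lowest. Atf4 itself had 104, 119 and 145 CPM in the 6 highest, against 71.5, 92.1 and 95.7 CPM in the 6 lowest. Herpud1, which acts in the disposal of misfolded proteins of the endoplasmic reticulum, had 55.5, 63.3 and 87.6 CPM in the 6 highest, against 42.2, 50.4 and 54.4 CPM in the 6 lowest. All of the 6 highest lay above all of the 6 lowest in each, and the log2 fold changes were 0.50 ± 0.12, 0.40 ± 0.12 and 0.46 ± 0.13 (SE), each with an adjusted p above the 0.521 that was the lowest over all genes. They were named after their values were seen, as were all further members of the lists.

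Low-abundance regulators had larger and less certain differences. Trib3, a pseudokinase that restrains the ATF4 response, averaged 1.86 ± 0.93 CPM in the 6 highest and 0.935 ± 0.34 CPM in the 6 lowest (SD, n = 6 each), a log2 fold change of 1.00 ± 0.33. Gdf15, a secreted stress hormone, averaged 1.95 ± 0.93 CPM in the 6 highest and 0.90 ± 0.34 CPM in the 6 lowest, a log2 fold change of 1.05 ± 0.37. Sesn2, an inhibitor of mTORC1, averaged 6.52 ± 1.78 CPM in the 6 highest and 3.86 ± 1.08 CPM in the 6 lowest, a log2 fold change of 0.76 ± 0.23. All 3 overlapped between the classes. The enzymes that begin serine synthesis did not share the direction: the log2 fold change was -0.18 ± 0.14 for Phgdh (95% interval -0.49 to 0.13) and -0.04 ± 0.18 for Psat1 (-0.43 to 0.35). Slc7a11, the cystine carrier, had -0.12 ± 0.13 (-0.39 to 0.15). Over the wider list of serine and one-carbon enzymes 11 of 22 lay above 0, with a median of 0.04. Mthfd1l, which works beside Mthfd2 in mitochondrial folate metabolism, had the highest value, 0.79, and 2 members had an unadjusted p under 0.05 on the higher side and 1 on the lower.

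Of 12 genes for eIF2, its exchange factor, kinases and phosphatase subunits, 9 lay above 0, with a median of 0.17. Over all genes tested, 50.8% lay above 0. Ppp1r15a, the stress-induced subunit that directs dephosphorylation of eIF2, averaged 13.6 CPM in the 6 highest and 9.45 CPM in the 6 lowest, a log2 fold change of 0.58. Because it is induced within the same response, its value is not independent of the choice of libraries and does not show a difference upstream of ATF4. The kinase genes themselves differed among each other: Eif2ak1 had 0.36, Eif2ak4 0.04, Eif2ak3 -0.12 and Eif2ak2 -0.14. Among amino acid transporters 21 of 28 lay above 0, with a median of 0.11, and 8 had an unadjusted p under 0.05 on the higher side and 1 on the lower. Over all genes tested, 3.45% were higher and 3.78% lower at that p. The list shares members with the other ATF4 targets, Slc7a11 among them, so its direction is not independent of the choice of libraries.

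The cytosolic tRNA synthetases, enzymes that load amino acids onto tRNAs, lay mostly on the higher side. Of 20 members 19 lay above 0, with a median log2 fold change of 0.28. At an unadjusted p under 0.05, 11 were higher, against 3.45% of all genes tested. None of the 20 passed the adjusted threshold between the classes. Aars1, the alanine enzyme, passed in an alternative that fitted a slope on the score over 16 libraries (edgeR quasi-likelihood, adjusted p = 0.0232). Its slope there was 0.62 over the distance between the class mean scores. ATF4 turns on genes for tRNA charging, so the direction of this list is not independent of the choice of libraries either. Gars1, the glycine enzyme, had 80.1, 87.5 and 122 CPM in the 6 highest, against 57.5, 64.8 and 76.9 CPM in the 6 lowest, a log2 fold change of 0.52 ± 0.12 (SE, adjusted p = 0.521). Sars1, the serine enzyme, had 97.6, 101 and 116 CPM in the 6 highest, against 64.0, 80.0 and 85.0 CPM in the 6 lowest, a log2 fold change of 0.41 ± 0.11 (adjusted p = 0.548). Wars1, Mars1 and Lars1 also had no overlap between the classes. Over all genes tested, 0.25% had all of the 6 highest above all of the 6 lowest. The mitochondrial synthetases did not follow the cytosolic ones: 7 of 17 lay above 0, with a median of -0.03. Chaperones of the endoplasmic reticulum had 12 of 23 above 0 and a median of 0.00.

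**Figure D2:**
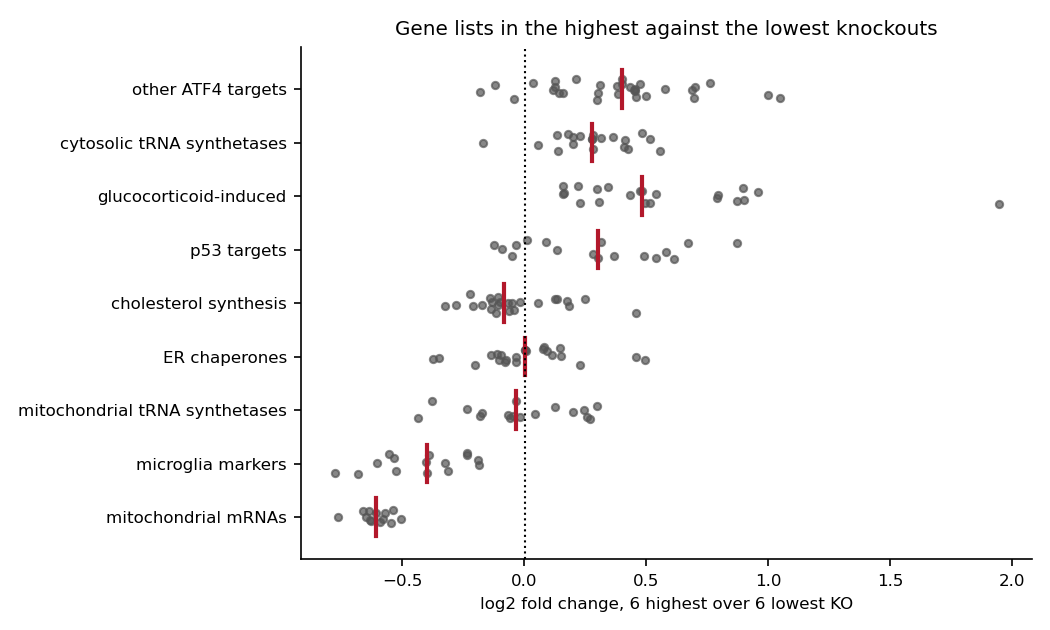
Each point is the log2 fold change of one gene, 6 highest over 6 lowest knockouts, in 9 gene lists; red bars are list medians and the dotted line is the median of all genes tested. The ATF4 target and cytosolic synthetase lists have medians of 0.40 and 0.28, the mitochondrial synthetases -0.03 and the mitochondrial mRNAs -0.61.

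Genes induced by glucocorticoids, the adrenal steroids that rise under systemic stress, were higher by value in the 6 highest in every one of 21 tested members of a list of 22, with a median log2 fold change of 0.48. In 9 the unadjusted p was under 0.05, where 3.45% of all genes tested were higher at that p. No member passed the adjusted threshold. Fkbp5, a co-chaperone of the glucocorticoid receptor, had a lowest, median and highest value of 12.3, 24.5 and 58.3 CPM in the 6 highest, against 7.87, 14.7 and 32.2 CPM in the 6 lowest. The classes overlapped widely: KO-Veh-1, first by the 6-gene score, had the lowest Fkbp5 of its class, and the middle libraries KO-Veh-5 and KO-Veh-4 had 56.3 and 66.3 CPM. The mean log2 CPM of the whole list was 4.11 to 5.23 in the 6 highest, 4.62 to 5.33 in the 4 middle and 3.95 to 4.72 in the 6 lowest, so this list did not follow the order of the 6-gene score. The other ATF4 targets did not part the middle from the highest either, with medians of 4.03 and 4.02, and 3.61 in the lowest. Over 44 alternatives the median of the glucocorticoid list ran from 0.0058 to 0.69 and its members above 0 from 11 to 21, lowest with a replicate block.

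Targets of p53 had 13 of 17 tested members above 0 and a median of 0.30, which ran from 0.0086, with 9 of 17 above 0 under a replicate block, to 0.43 over 44 alternatives. Bbc3, which promotes apoptosis, had a log2 fold change of 0.67 ± 0.17 (SE, adjusted p = 0.534), and Gadd45a, a growth-arrest gene, of 0.62 ± 0.18. Mdm2 and Ccng1, both direct p53 targets, had 0.09 ± 0.12 and -0.03 ± 0.17. Cdkn1a belongs to this list and to the glucocorticoid list. Cholesterol synthesis genes lay below 0 in 17 of 24 and above 0 in 7, with a median of -0.08, which was above 0 in 3 of 44 alternatives. Only 1 member had an unadjusted p under 0.05, on the higher side.

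Against wild type, both knockout classes differed, and the 2 comparisons share all 18 wild-type libraries. The 6 highest had 761 of 16376 genes past an adjusted p of 0.05 (4.65%), 420 higher (2.56%) and 341 lower (2.08%). The 6 lowest had 183 (1.12%), 128 higher (0.782%) and 55 lower (0.336%). With the mitochondrial rRNA share as a covariate, the 6 highest had 1577, 552 higher and 1025 lower, and the 6 lowest had 1257, 602 higher and 655 lower. The difference between these counts was not tested. The count for the 6 highest was 444 without KO-Veh-9, 478 without KO-Veh-10, 507 without KO-aKG-1 and 482 without KO-aKG-8. That for the 6 lowest was 73 without KO-Veh-6, 86 without KO-Veh-8, 107 without KO-Veh-2, 118 without KO-aKG-5 and 288 without WT-Veh-5. Brain region moved with both comparisons. Cerebellum markers had a median log2 fold change over wild type of -2.13 in the 6 highest and -3.07 in the 6 lowest, below 0 in 21 of 21 in each. Their mean level was 1.87 to 4.46 in the 6 highest and 2.25 to 3.66 in the 6 lowest, against 2.17 to 7.73 in wild types. The median library had 4.35 in the 6 highest and 2.77 in the 6 lowest, against 3.67 in wild types. The left-out KO-aKG-7 and KO-Veh-7, at 5.98 and 7.61, were not in these comparisons, whereas no wild type was left out. The part of region in the counts of called genes was not tested beyond a fit with region components, which gave 1754 calls in the highest and 497 in the lowest.

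Of 31 tested ATF4 targets, 15 passed against wild type in the 6 highest and 9 in the 6 lowest, all of them higher. Of all genes tested, 2.56% and 0.782% were called higher. By value, 30 lay above 0 in the highest and 26 in the lowest. Slc7a3, a carrier of cationic amino acids, averaged 42.9 ± 9.51 CPM in the 6 highest and 33.2 ± 6.75 CPM in the 6 lowest (SD, n = 6 each), against 5.47 CPM in wild types. Its log2 fold change over wild type was 2.99 in the highest and 2.58 in the lowest (edgeR quasi-likelihood, adjusted p = 1.6e-09 and 1.0e-07). Slc7a1, Slc7a5, Shmt2, Pck2, Aldh18a1, Sesn2, Trib3 and Atf4 also passed in both. Gdf15, Cebpb, Stc2, Eif4ebp1, Herpud1 and Slc3a2 passed in the highest, and in the lowest their adjusted p-values were 0.115, 0.23, 0.0761, 0.0714, 0.109 and 0.115. No gene passed in the test of highest against lowest itself. Synthetases passed in 13 of 20 in the highest and 8 of 20 in the lowest. Cars1, the cysteine enzyme, had log2 fold changes of 1.36 in the highest and 1.05 in the lowest, and Sars1 of 1.06 and 0.63.

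**Figure D3:**
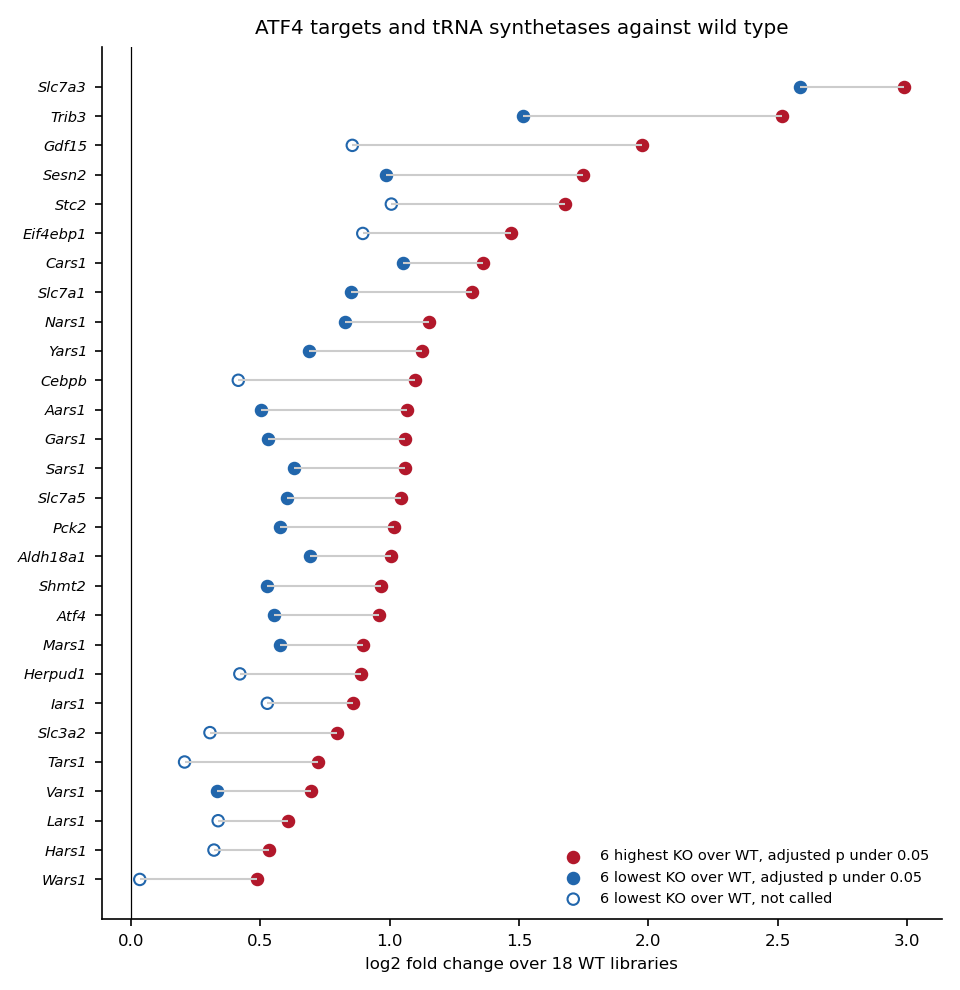
For each ATF4 target or cytosolic synthetase past the threshold against the 18 wild types, red points give the log2 fold change of the 6 highest and blue points that of the 6 lowest knockouts; filled points have an adjusted p under 0.05. The red point lies to the right of the blue one in each gene, from Slc7a3 at 2.99 and 2.58 down to Wars1 at 0.49 and 0.03. A gene is shown if it passed in either class, and some passed in the highest alone. The classes were picked on genes of the same response, so this order is not independent of the choice.

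The glucocorticoid list had 9 of 21 members past the threshold in the 6 highest and 0 of 21 in the 6 lowest, where 3 had an unadjusted p under 0.05. Of all genes tested, 2.56% were called higher in the 6 highest and 0.782% in the 6 lowest. The 0 of 21 in the lowest is thus near the share over all genes. Plin4, a lipid droplet protein, had a log2 fold change over wild type of 3.24 in the highest (adjusted p = 2.9e-06) and 1.29 in the lowest (adjusted p = 0.141). Fkbp5 had 1.49 (adjusted p = 0.00212) and 0.59 (adjusted p = 0.3). Between the classes these genes had adjusted p-values of 0.611. Cholesterol synthesis genes were lower by value in 25 of 25 in the highest and 24 of 25 in the lowest, with medians of -0.49 and -0.48. Of these, 7 and 1 passed the threshold, where 2.08% and 0.336% of all genes tested were called lower. Stard4, a sterol carrier, passed in both, with log2 fold changes of -1.03 and -0.77.

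A list of 15 genes that mark the knockout, drawn up from earlier results of the same libraries, had no common direction between the classes: 8 lay above 0, with log2 fold changes from -1.21 to 1.06, and 2 had an unadjusted p under 0.05 on each side. Cox6a2, a subunit of cytochrome c oxidase best known from muscle, averaged 67.4 ± 25.8 CPM in the 6 highest and 62.5 ± 20.4 CPM in the 6 lowest (SD, n = 6 each), against 6.52 CPM in wild types. The log2 fold change between the classes was 0.17 ± 0.26. Mt3, the brain metallothionein, averaged 496 ± 94.7 CPM in the 6 highest and 493 ± 181 CPM in the 6 lowest, against 96.1 CPM in wild types, and differed by -0.01 ± 0.25 between the classes. Dleu7 differed by 0.17 ± 0.30. These 3 genes passed against wild type in both classes. The 95% intervals of these differences, -0.39 to 0.74 for Cox6a2, -0.55 to 0.54 for Mt3 and -0.47 to 0.82 for Dleu7, all include the 0.40 that was the median of the ATF4 targets. Fabp7, a lipid carrier made by radial glia, averaged 109 ± 42.0 CPM in the 6 highest and 226 ± 90.3 CPM in the 6 lowest, against 385 CPM in wild types (log2 fold change between the classes -1.21 ± 0.26, adjusted p = 0.521). It passed against wild type in the highest (-1.88, adjusted p = 0.000109) and had an adjusted p of 0.164 in the lowest. Cyb5r1, a cytochrome b5 reductase, averaged 32.7 ± 10.7 CPM in the 6 highest and 20.2 ± 6.49 CPM in the 6 lowest, against 7.58 CPM in wild types (log2 fold change between the classes 0.78 ± 0.24, adjusted p = 0.606, and 1.36 with an adjusted p of 0.00818 with the rRNA share as a covariate). Npy, the neuropeptide Y precursor, averaged 146 ± 139 CPM in the 6 highest and 69.7 ± 34.1 CPM in the 6 lowest, against 44.5 CPM in wild types (1.06 ± 0.48, adjusted p = 0.679). Both overlapped between the classes.

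**Figure D4:**
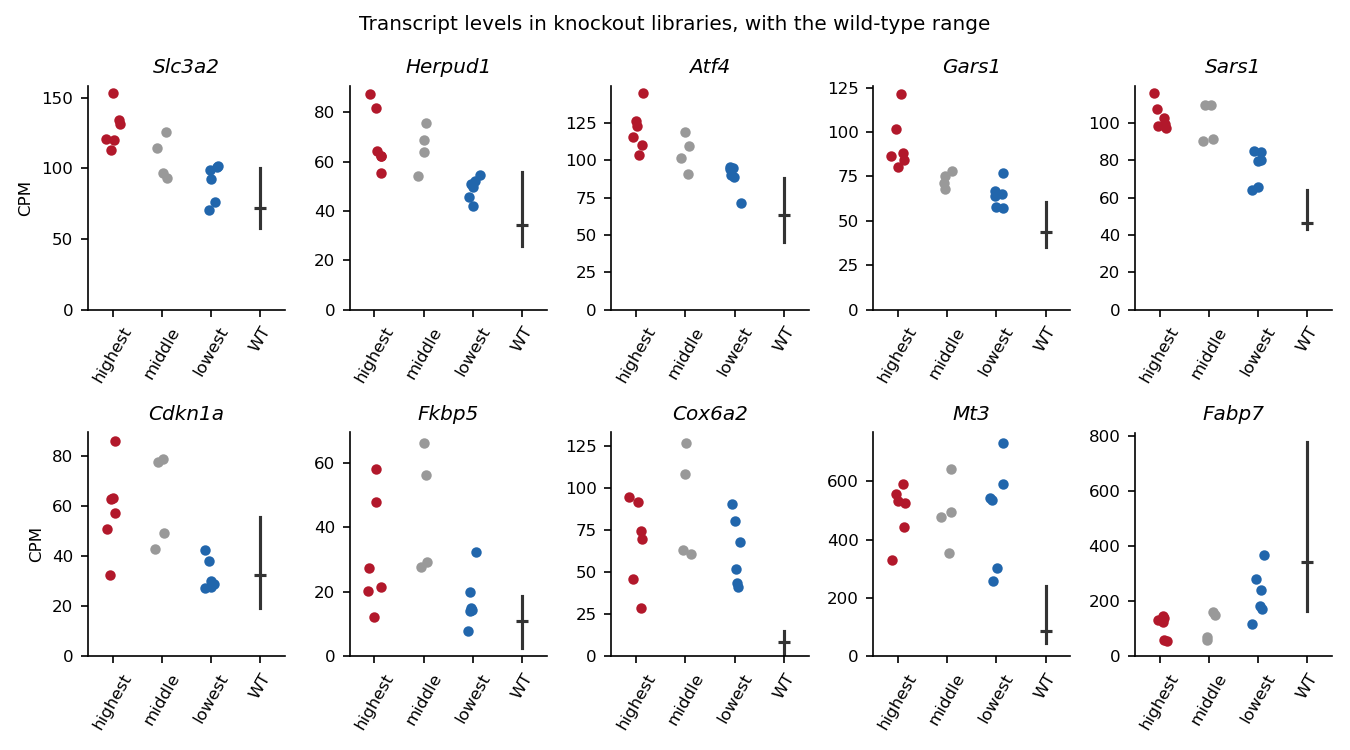
CPM of 10 genes in each of the 6 highest, 4 middle and 6 lowest knockouts (points) and the lowest, median and highest of 18 wild types (bar and tick). Slc3a2, Herpud1, Atf4, Gars1 and Sars1 do not overlap between highest and lowest, whereas Cox6a2 and Mt3 overlap and lie above the wild-type range in both.

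Other properties of the libraries moved with the classes. Mitochondrial rRNA took 16.1 ± 2.63% of counts in the 6 highest and 20.4 ± 2.37% in the 6 lowest (SD, n = 6 each), a difference of -4.25 percentage points (exact permutation test, two-sided, p = 0.0216, adjusted p = 0.0866). The mean score was 5.82 in the 6 highest and 5.05 in the 6 lowest. Scaled to totals without mitochondrial rRNA it was 6.08 and 5.38. The rRNA share thus entered the score that picked the classes, and its p-value is not independent of the choice. Library totals differed by 0.587 M counts (exact permutation test, two-sided, p = 0.734). The 13 mitochondrial mRNAs all lay below 0 in the 6 highest, with a median log2 fold change of -0.61 and an unadjusted p under 0.05 in 13, and none passed the adjusted threshold. When the libraries were ranked by a score from TMM-scaled CPM, 8 of the 13 lay above 0 and the median was 0.03; with the rRNA share as a covariate it was -0.32. On the TMM score the middle libraries KO-Veh-4 (5.86) and KO-Veh-5 (5.84) lay above all of the 6 highest (5.42 to 5.77). Ranking by it kept 4 of the 6 highest and 5 of the 6 lowest. A score scaled to library totals without mitochondrial rRNA kept 5 and 6. Mitochondrial tRNAs lay below 0 in 15 of 15 tested, with a median of -0.69 and an unadjusted p under 0.05 in 13, where 3.78% of all genes tested were lower at that p. Their mean log2 CPM was 0.46 to 1.55 in the 6 highest and 1.53 to 2.24 in the 6 lowest. Ribosomal protein genes lay below 0 in 85 of 88 (median -0.23), and their mean log2 CPM was 7.62 to 8.31 in the 6 highest and 7.96 to 8.37 in the 6 lowest. Ribosomal pseudogenes, whose reads may come from parent genes, lay below 0 in 130 of 133 (median -0.28). Erythroid genes lay below 0 in 7 of 7 (median -0.54), with a mean log2 CPM of 6.98 to 7.87 in the 6 highest and 7.64 to 8.93 in the 6 lowest. These medians also moved with the settings. Over 43 alternatives they ran from -0.98 to -0.04 for mitochondrial tRNAs, -0.79 to 0.04 for ribosomal proteins and -0.86 to -0.02 for the pseudogenes. That of the erythroid genes ran from -1.13 to 0.44 over 44. The part of these features in the ATF4 target and synthetase values was not tested beyond these settings, under which the ATF4 target median was 0.44 with the TMM score and 0.35 with the rRNA share as a covariate.

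Markers of brain regions and cell types also differed by value. In bulk tissue, fewer cells of a type and less RNA per cell cannot be told apart. Cerebellum markers lay above 0 in 20 of 20 tested members, with a median log2 fold change of 0.90. In 8 the unadjusted p was under 0.05, where 3.45% of all genes tested were higher at that p. The mean log2 CPM of the list was 1.87 to 4.46 in the 6 highest and 2.25 to 3.66 in the 6 lowest: KO-aKG-8, KO-aKG-6, KO-Veh-10 and KO-Veh-9 had 4.34 to 4.46, while KO-Veh-1 and KO-aKG-1 had 2.82 and 1.87. The left-out KO-aKG-7 and KO-Veh-7 had 5.98 and 7.61. Striatum markers lay below 0 in 14 of 14 (median -0.84), and their mean level was 3.19 to 5.25 in the 6 highest and 2.86 to 5.84 in the 6 lowest. Microglia markers lay below 0 in 15 of 15 (median -0.40), with 3.60 to 4.34 in the 6 highest and 4.18 to 4.61 in the 6 lowest. Myelin markers lay above 0 in 17 of 19 (median 0.37), and 2 libraries of the highest, KO-aKG-8 and KO-aKG-6, had the top values of 8.02 and 7.33. With the cerebellum score as a covariate, the median was 0.41 for the ATF4 targets, 0.26 for the cytosolic synthetases and 0.36 for the glucocorticoid list. None of these marker genes passed the adjusted threshold between the classes.

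**Figure D5:**
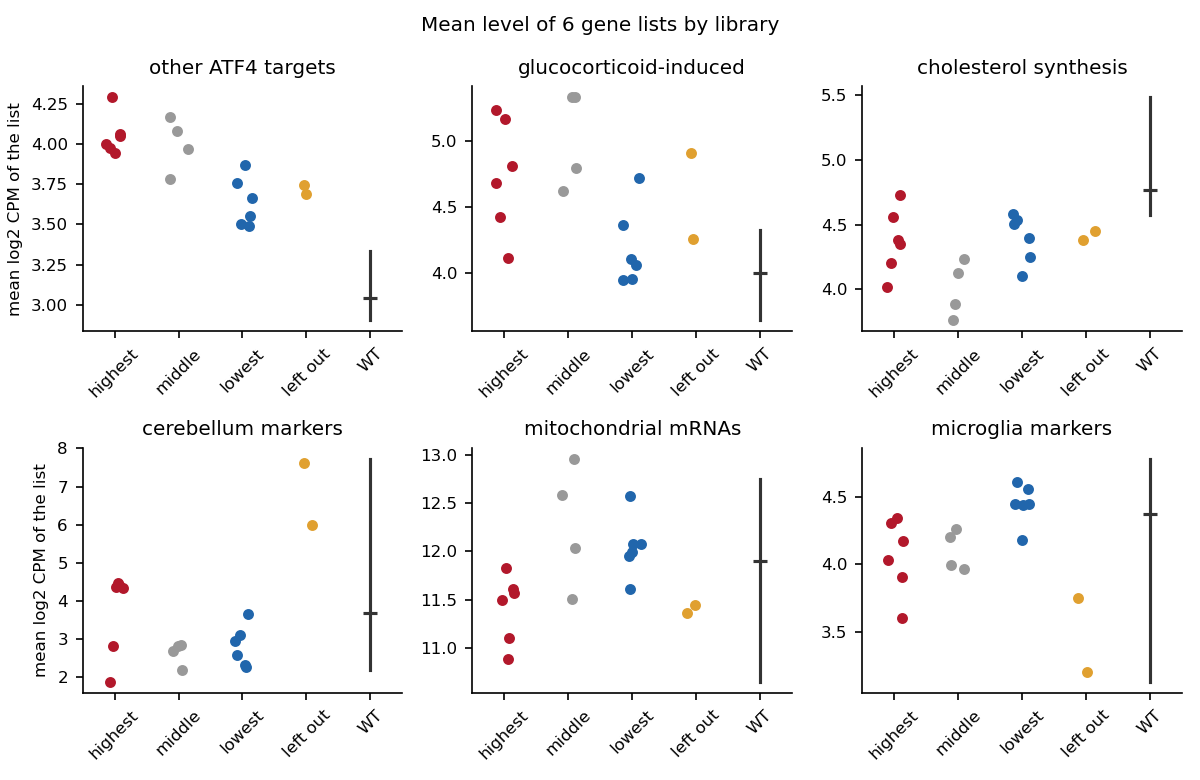
Mean log2 CPM of 6 gene lists in the 6 highest, 4 middle, 6 lowest and 2 left-out knockouts (points) and the lowest, median and highest of 18 wild types (bar and tick). Other ATF4 targets run from 3.95 to 4.29 in the highest, 3.78 to 4.17 in the middle and 3.49 to 3.87 in the lowest. Their median is 4.02 in the highest and 4.03 in the middle. Glucocorticoid-induced genes overlap between the highest and the lowest and reach their top value in a middle library, at 5.33.

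In the 18 wild types, which the choice of libraries did not use, the slope of each gene on the 6-gene score was fitted with treatment as a covariate. Of 16656 genes 91 passed (0.546%), 25 higher (0.15%) and 66 lower (0.396%) with rising score. Pgd of the pentose phosphate pathway and Pkm, pyruvate kinase, had slopes of 1.12 ± 0.20 and 1.03 ± 0.19 log2 units per unit of score (SE, edgeR quasi-likelihood, adjusted p = 0.0217 and 0.0247). Rpl41, a ribosomal protein, and Pfdn5, a prefoldin subunit, had -1.65 ± 0.25 and -1.63 ± 0.24 (adjusted p = 0.0124 each). The count was 0 without WT-Veh-2 and 0 without WT-aKG-8, the 2 wild types with the highest scores, 15 without WT-Veh-3 and 204 without WT-Veh-1. It was also 0 with the mitochondrial rRNA share as a covariate and 0 without treatment.

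Ribosomal protein genes had negative slopes in the wild types in 85 of 88, and 15 passed. Ribosomal pseudogenes had negative slopes in 131 of 139, and 17 passed. Mitochondrial mRNAs had negative slopes in 13 of 13, with a median of -1.29 and an unadjusted p under 0.05 in 13, and none passed. These lists also lay mostly below 0 between the knockout classes. The same score, which the mitochondrial rRNA share enters, was used in both sets, so the shared direction is not independent of its scaling. A slope on a score from TMM-scaled CPM was not fitted in wild types. Synthetases had positive slopes in 19 of 20, and 1 passed. Other ATF4 targets had positive slopes in 19 of 29, and none passed. Cholesterol synthesis genes had positive slopes in 25 of 25, with a median of 0.81, and none passed. Myelin markers were positive in 19 of 19, with a median slope of 2.28, and midbrain and hindbrain markers in 14 of 14, with a median of 4.47. The glucocorticoid list had 9 of 20 positive slopes and a median of -0.08.

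The difference between the knockout and wild-type slopes was tested directly over 15210 genes. No gene passed the adjusted threshold (0%, edgeR quasi-likelihood), and 656 had an unadjusted p under 0.05. Cholesterol synthesis genes had a smaller slope in knockouts by value in 24 of 24, with a median difference of -0.82, and 9 had an unadjusted p under 0.05. Myelin markers were smaller in 19 of 19, with a median of -1.81. The glucocorticoid list was larger in 17 of 20, with a median of 0.65.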

How the data were processed

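Each library was oligo-dT primed, carried molecular identifiers and was tagmented, per the labels' protocols, so counts come mainly from transcript 3′ ends. No source used here says whether identifiers were collapsed or strand was used in counting. Estimated counts, as whole numbers, were deposited for 56184 genes (5.77 to 13.3 M counts per library). A deposited CPM table covers 21637 genes; its values were proportional to the counts within a library, and no header describes its making. HISAT2 2.2.1 and featureCounts 2.0.6 are named, with builds mm10 and mm39, in the submitters' processing notes.

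The CPM table gave the 6-gene score. Counts were fitted with edgeR 4.0.16 in R 4.3.3 (filterByExpr with a minimum count of 10, TMM, robust quasi-likelihood), with treatment as a covariate and Benjamini-Hochberg adjustment over all genes tested. DESeq2 1.42.0 and limma 3.58.1 served as alternatives, as did other scores, class sizes, covariates and left-out libraries. Wild types and both classes entered one fit for the comparisons with wild type. Single values were tested by exact permutation (scipy). Intervals are 95%. The scripts were tested on simulated counts. No 2 libraries of a group were identical in 146 pairs.

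Genes were named as the targeted gene, then called genes, or, where none was called, the 5 per direction with the smallest p at a mean of at least 5 CPM, predicted and sex-check genes left out. List members are named after their values were seen. Members and lists were chosen with earlier results of these data known.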

Additional observations from a re-analysis of the deposited data

Results flagged for a closer look

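In all, 3 library values stood far from the rest of their class of 6 by Dixon's test, out of 52 classes of values examined, where chance alone gives about 1 in 20. Among the 6 highest knockouts, KO-aKG-8 had a mean log2 CPM of 4.29 over the other ATF4 targets, against 3.95 to 4.06 in the other 5. In the same class, KO-aKG-1 had 21.2% of its counts on mitochondrial rRNA, against 14.1% to 16.4% in the other 5. Among the 6 lowest, KO-aKG-5 had 5.77 M counts, against 10.3 to 12.1 M in the other 5. No gene's slope differed between knockouts and wild types past the adjusted threshold.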

How the results depend on the processing

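Between the 6 highest and the 6 lowest knockouts, the count of called genes was 0 in 36 of 44 alternatives, including every fit that left out one library (0 to 0). The others were 28 with DESeq2, 2 with limma on the deposited CPM, 4 with a slope on the score over 16 libraries, 2 with the score without Asns, 1 with the hypothalamus score as a covariate and 16 with the mitochondrial rRNA share as a covariate. A replicate block gave 179 calls with the classes, at 1 residual degree of freedom, and 2 with the score slope. The block shares only a number: same-numbered KO-aKG and KO-Veh libraries correlated at -0.32 to 0.52, above 0.1 in 4 of 8 pairs. KO-aKG and WT-aKG were above 0.1 in 7 of 8, at -0.45 to 0.70, and KO-Veh and WT-Veh in 3 of 10. Slopes in wild types gave 27 calls with no low-count filter, 0 with no treatment covariate, 274 with 2 region principal components, 0 with the replicate block and 0 with the rRNA share; without 1 of the 4 highest-scoring wild types the range was 0 to 204. The 6 highest against wild type gave 454 with no low-count filter, 1754 with region components, 463 with the replicate block and 1577 with the rRNA share, and 444 to 889 without 1 library. The 6 lowest against wild type gave 85, 497, 65 and 1257 under those same settings, and 73 to 288 without 1 library. The slope difference gave 1 call with no low-count filter. The cause of these changes was not tested. The alternatives with the rRNA share as a covariate outside the highest against lowest comparison, the score slope with that share and the score without rRNA within it, and those leaving out libraries in comparisons with or within wild types, were chosen after seeing the data.

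Some named genes that were not called changed sign. Between the classes, Gpt2 was at 0.21 with the score from TMM CPM and 0.13 with the rRNA share, and Dusp5 at -0.0137 with KO-Veh-7 and KO-aKG-7 kept. In the highest over wild type, Dusp5 was at 0.67 with region components, and Prkg2 at 0.29 with the replicate block and 0.59 with the rRNA share. In the lowest over wild type, Cdkn1a was at 0.29 with region components and 0.0326 with the block, and -0.124 to 0.0178 without 1 library, above 0 without KO-Veh-6 (0.00183) or WT-Veh-9. Cd34 ran from -0.0555 to 0.124 without 1 library and was below 0 in 8 of those fits, Prkg2 was at -0.000394 and mt-Ti at -0.20 with region components, and mt-Ti was at -0.0657 without KO-Veh-2. The median of the ATF4 targets was above 0 in 44 of 44 alternatives (0.28 to 0.60) and that of the cytosolic synthetases in 44 of 44 (0.18 to 0.51). All alternatives used the score genes or a part of them, so these directions are not independent of the choice there either. The glucocorticoid, p53, eIF2, amino acid transporter and choroid plexus lists were also above 0 in 44 of 44. Microglia and striatum markers were in 0 of 44. On the deposited CPM the median of all genes was 0.23, and that of cholesterol genes 0.15. The shallowest library, KO-aKG-5, had 5.77 M counts.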
